A study of Mus musculus with 6 samples.

Results

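A group of 10 genes under genomic imprinting with known roles in the placenta and in growth was followed in mouse embryonic stem cells depleted of nucleolin mRNA, and 9 of them, read by 20 probe sets, had a measurement of their own among 18193 genes in all. Members were taken by annotation, as every probe set assigned to exactly 1 of the symbols H19, Phlda2, Cdkn1c, Ascl2 and Grb10, which are expressed from the maternal copy, or Igf2, Peg3, Peg10, Mest and Plagl1, which are expressed from the paternal copy. The list was chosen from results of these same arrays already known, that is, with the changes against the control siRNA in view. Those changes are therefore described without p-values and support nothing by themselves. H19 dropped out, because its only probe set is shared with the microRNA gene Mir675.

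The cells were E14Tg2a, a mouse embryonic stem cell line, transfected with 1 of 3 small interfering RNAs (siRNAs), short duplexes that lower a matching mRNA, and all samples are labelled 96 h. The control duplex was directed against firefly luciferase, a gene these cells lack, and both others against Ncl, which encodes the nucleolar protein nucleolin. Each of the 3 groups held 2 Affymetrix arrays of total RNA, and all arrays come from the same line with no further genotype or treatment given. Whether replicates were separate cultures is not given, so the spread between them may be technical.

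In imprinting, methylation marks laid down in the egg or sperm leave 1 parental copy of a gene active and the other silent. Many imprinted genes act in the placenta, where paternally expressed ones such as Igf2 and Peg10 favour growth, and maternally expressed ones such as Cdkn1c, Phlda2 and Grb10 restrain it. Several lie together on distal chromosome 7, in neighbouring domains controlled at H19 and at Kcnq1ot1. Embryonic stem cells carry these marks but can lose some of them in culture. The arrays read total transcript and do not tell the parental copies apart.

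The sequences upstream of 4 members are shown first, because the largest rise (Igf2), the fall (Phlda2), the placental factor Ascl2 and the holder of a Plagl1 motif (Peg3) are what the values below turn on. They were taken from RefSeq on GRCm38.p6, where 7 of the 10 genes had 13 windows of 300 bases around annotated starts, and the 250 bases before the start are printed 5′ to 3′, all 5 from the minus strand. Igf2 has several starts, and CpG dinucleotides, the sites of DNA methylation, are in capitals in the Igf2 and Ascl2 sequences. The upstream stretch of the first Igf2 start holds 1 CpG, that of start 3 holds 22, and that of Ascl2 holds 19. In the Phlda2 and Peg3 sequences the capitals mark a motif match.
Igf2, start 1, chr7:142666817-142667066: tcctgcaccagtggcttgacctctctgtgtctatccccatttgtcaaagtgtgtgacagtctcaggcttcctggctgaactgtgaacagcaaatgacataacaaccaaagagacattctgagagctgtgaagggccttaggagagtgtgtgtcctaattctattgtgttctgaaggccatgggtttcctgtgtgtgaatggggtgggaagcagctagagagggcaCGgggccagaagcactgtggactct
Igf2, start 3, chr7:142658805-142659054: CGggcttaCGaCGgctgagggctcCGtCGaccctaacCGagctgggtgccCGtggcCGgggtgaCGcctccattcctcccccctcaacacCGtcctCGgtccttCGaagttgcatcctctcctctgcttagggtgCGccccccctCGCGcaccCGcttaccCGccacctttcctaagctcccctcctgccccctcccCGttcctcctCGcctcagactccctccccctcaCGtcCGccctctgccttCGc
Ascl2, chr7:142969265-142969514: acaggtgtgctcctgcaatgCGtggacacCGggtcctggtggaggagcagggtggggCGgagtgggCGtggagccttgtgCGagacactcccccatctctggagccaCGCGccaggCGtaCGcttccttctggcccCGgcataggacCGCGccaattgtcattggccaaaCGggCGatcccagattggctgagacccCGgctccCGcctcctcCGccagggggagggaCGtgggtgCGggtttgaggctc
Phlda2, chr7:143502525-143502774: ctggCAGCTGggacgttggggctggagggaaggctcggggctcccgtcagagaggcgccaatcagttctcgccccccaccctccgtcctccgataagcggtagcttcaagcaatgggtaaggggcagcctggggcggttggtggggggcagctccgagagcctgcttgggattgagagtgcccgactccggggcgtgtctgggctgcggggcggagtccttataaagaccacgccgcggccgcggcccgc
Peg3, chr7:6730420-6730669: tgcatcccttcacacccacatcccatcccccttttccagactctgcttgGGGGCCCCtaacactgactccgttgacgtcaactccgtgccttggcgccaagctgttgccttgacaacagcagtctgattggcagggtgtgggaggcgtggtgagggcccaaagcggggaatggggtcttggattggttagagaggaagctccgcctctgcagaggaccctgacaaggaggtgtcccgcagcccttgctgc

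A pair of motifs was searched, each being its own reverse complement and so covering both strands, and neither contains the other. GGGGCCCC, a site bound by the zinc finger protein Plagl1, was found in 1 of the 13 member windows, that of Peg3, and in 1.08% of 32851 windows of the same length. CAGCTG, an E-box of the kind bound by basic helix-loop-helix factors such as Ascl2, was found in 2 member windows, that of Phlda2 and the first of Mest, and in 16.3% of all windows. Over the full 300 bases the member windows held between 2 CpG (first Igf2 start) and 45 CpG (first Grb10 start), against a median of 7 over all windows. These matches describe letters only.

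Ncl was lower in every array of the targeted groups. Its brightest probe set read 14.21 and 14.21 with the control, 13.77 and 13.74 with Ncl siRNA #1, and 13.77 and 13.72 with #2, on a log2 scale. In the mean of both siRNAs that probe set changed least, by -0.46, and the other Ncl probe sets changed by -0.60 to -1.50. Array medians lay between 5.73 and 5.79. The cells carried stem cell markers throughout, at a lower summed level with the Ncl siRNAs. The 6 markers were Pou5f1, Nanog, Sox2, Zfp42, Esrrb and Tdgf1. Their summed level was 15.54 to 15.56 with the control, 15.26 to 15.27 with #1 and 15.05 to 15.08 with #2. In the mean of both siRNAs 5 of the 6 were called lower and Sox2 was not called, beside 19.9% of all genes that fell.

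The control arrays also held transcripts of lung and heart cells. All 5 airway secretory markers were lower with the Ncl siRNAs, and their summed level was 13.14 to 13.17 in the control arrays, 6.21 to 6.60 with #1 and 6.58 to 6.68 with #2. Among 10 markers of lung mesenchyme and fibroblasts 6 were lower and 1 higher, with summed levels of 9.78 to 10.04, 9.35 to 9.42 and 9.15 to 9.18 in the same order. Of 6 alveolar markers 5 were lower (11.37 to 11.55, 9.17 to 9.27 and 9.02 to 9.05), and of 8 heart markers 7 (9.51 to 9.75, 8.49 to 8.62 and 8.47 to 8.48). Endothelial markers had 2 of 9 higher and 4 lower (9.86 to 9.95, 9.75 to 10.03 and 9.73 to 9.76), and skeletal muscle markers had 2 of 6 higher and 2 lower (10.95 to 10.97, 10.21 to 10.31 and 10.25 to 10.31). These counts are limma calls in the mean of both siRNAs, beside 19.3% of all genes that rose and 19.9% that fell. No marker of any list reads 0 on this scale, and 3 airway markers lay below the lower quartile of every Ncl siRNA array. Poly-A control RNAs averaged 7.13 to 7.27 in the control arrays and 7.83 to 8.25 in the others. Hybridisation controls averaged 11.72 to 11.86 against 10.87 to 11.01, and 18S rRNA probe sets 12.02 to 12.19 against 12.96 to 13.20. The part of these differences in the imprinted genes' changes was not tested.

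Against the control siRNA, most of the measured members were higher and Phlda2 was lower, with both Ncl siRNAs. In the mean of both, 13 of 20 probe sets rose, 1 fell and 6 were not called (limma, adjusted p under 0.05 over 45037 probe sets). Of all probe sets, 15.2% rose and 16.2% fell. With siRNA #1 alone the same counts were 13, 1 and 6, so that 14 of 20 were called, beside 27.1% of all probe sets called in either direction. With siRNA #2 alone they were again 13, 1 and 6, beside 28.5%. Since the list was made with these changes known, nothing is read from the counts. The median over the 20 probe sets was 0.75, and over all probe sets -0.04. In bulk RNA, a change in the number of cells of a type and a change in the RNA per cell cannot be told apart.

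The 2 parental classes were kept apart. On 8 probe sets of the 4 maternally expressed genes, 5 rose, 1 fell and 2 were not called, with a median of 0.64. On 12 probe sets of the 5 paternally expressed genes, 8 rose, none fell and 4 were not called, with a median of 0.75. Taking each gene by the probe set with the highest mean, the medians were 0.64 for the 4 maternally and 1.33 for the 5 paternally expressed genes. The difference between the classes was not tested. The values behind these counts follow gene by gene, growth factor first.

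**Figure D1:**
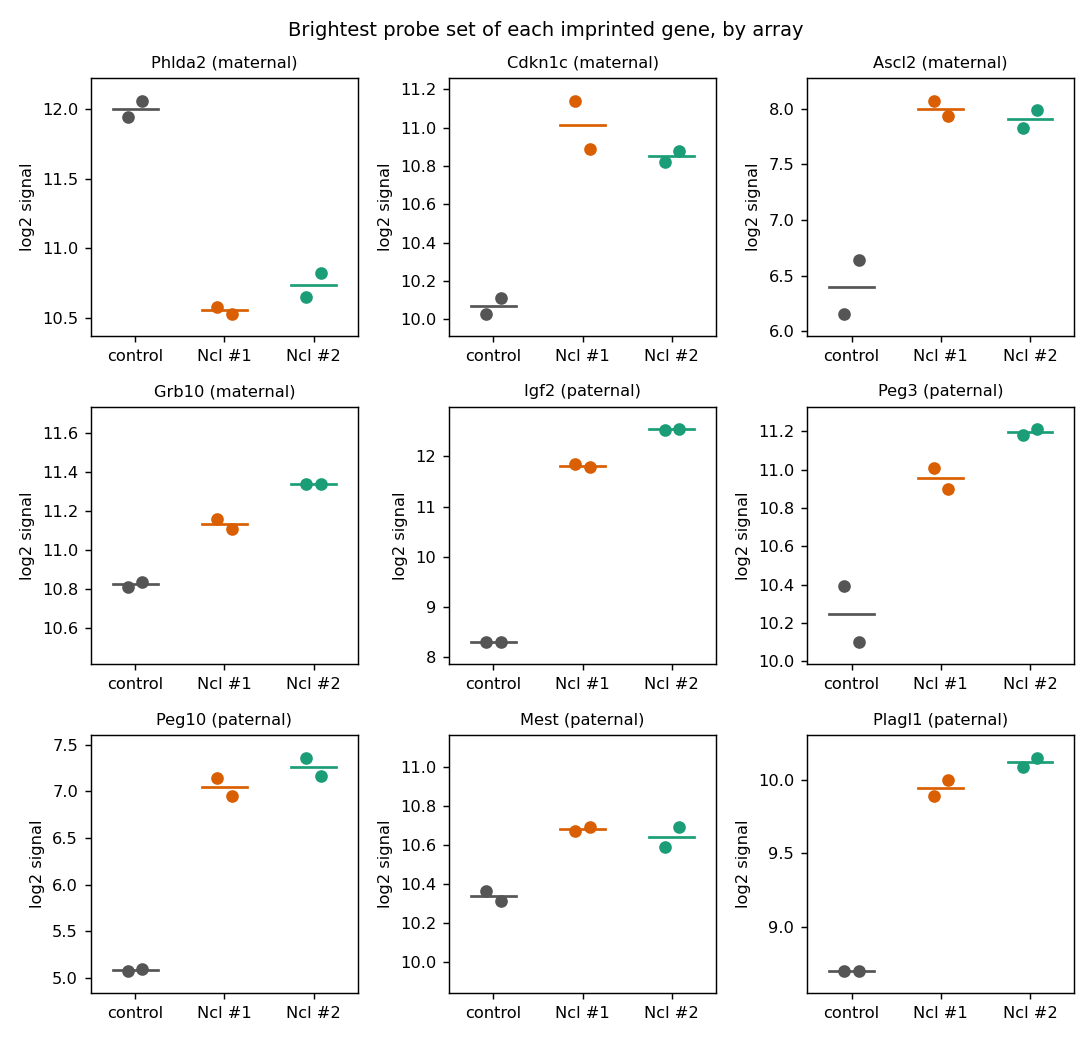
Log2 signal (vertical axis, a separate range in each panel) of the brightest probe set of each of the 9 genes on each of the 6 arrays, grouped by siRNA on the horizontal axis. Points are arrays and lines are means of 2 arrays. Phlda2 is the gene lower with the Ncl siRNAs, and the list was made with these changes known.

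Igf2, the insulin-like growth factor that drives fetal and placental growth, changed most. Its brightest probe set, 1448152_at, stood at 8.30 and 8.31 in both controls, at 11.84 and 11.79 under #1, and at 12.53 and 12.54 under #2. The 3 groups did not overlap, and replicates lay within 0.05 of each other. Igf2 rose by 3.51 with #1 (SE 0.06, 11.4-fold) and by 4.23 with #2 (SE 0.06, 18.8-fold), n = 2 per group. The second probe set, 1415931_at, was dim, at 4.38 and 4.25 with the control, 5.68 and 5.25 with #1, and 6.03 and 6.04 with #2. It rose as well, by 1.16 (SE 0.18) and 1.72 (SE 0.18), from control readings of which 1 lay below the lower quartile of its array.

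Peg10, a gene derived from a retrotransposon and needed to form the placenta, has 1 probe set. It read 5.08 and 5.10 with the control, 7.14 and 6.95 with #1, and 7.36 and 7.16 with #2, so that the control arrays were the low ones. It rose by 1.95 with #1 (SE 0.15, 3.87-fold) and by 2.17 with #2 (SE 0.15, 4.50-fold). Sgce, the paternally expressed sarcoglycan gene next to Peg10 in the annotated order, read 6.33 and 6.58, then 9.20 and 9.07, then 9.14 and 9.17. It rose by 2.69 in the mean of both siRNAs (SE 0.10).

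Plagl1, a zinc finger factor also called Zac1 that regulates other imprinted genes, moved on 1 of its 3 probe sets. The brightest, 1426208_x_at, read 8.70 and 8.70 with the control, 9.89 and 10.00 with #1, and 10.09 and 10.15 with #2. It rose by 1.24 (SE 0.08) and 1.42 (SE 0.08), with no overlap between the groups. The other probe sets were not called. For 1438588_at the differences were -0.05 (SE 0.17) and 0.22 (SE 0.17), and for 1450533_a_at 0.35 (SE 0.16) and 0.34 (SE 0.16). The suffix _x_at marks a probe set that may read other transcripts, and with such probe sets left out Plagl1 stood at 0.08 in the mean of both and was not called, so its rise rests on that probe set.

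Peg3, a zinc finger protein involved in growth and in maternal care, rose on 3 of 5 probe sets. The brightest, 1433924_at, read 10.39 and 10.10 with the control, 11.01 and 10.90 with #1, and 11.18 and 11.21 with #2. It rose by 0.71 with #1 (SE 0.08, 1.64-fold) and by 0.95 with #2 (SE 0.08, 1.93-fold). In the mean of both siRNAs, 1417355_at rose by 0.67 (SE 0.07) and 1417356_at by 1.10 (SE 0.11). The remaining pair, 1447731_at and 1447732_x_at, read 2.76 to 3.22, below the lower quartile of all 6 arrays, and were not called.

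Mest, a paternally expressed hydrolase-like protein of the mesoderm, moved least among the paternally expressed genes. Its probe set read 10.36 and 10.31 with the control, 10.67 and 10.69 with #1, and 10.59 and 10.69 with #2. It rose by 0.35 (SE 0.07, 1.27-fold) and by 0.30 (SE 0.07, 1.23-fold). The Ncl siRNA arrays were higher than both control arrays, and #1 and #2 overlapped. Without replicate 2 of #2 the rise with #2 was 0.25 and lost its call.

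Ascl2, a basic helix-loop-helix factor needed for the spongiotrophoblast of the placenta, rose most among the maternally expressed genes. Its brightest probe set, 1460514_s_at, read 6.16 and 6.64 with the control, 8.07 and 7.93 with #1, and 7.83 and 7.99 with #2. It rose by 1.60 (SE 0.15, 3.04-fold) and by 1.51 (SE 0.15, 2.85-fold). The others gave larger changes. In the mean of both siRNAs, 1422396_s_at rose by 2.48 (SE 0.15, 5.58-fold) and 1432018_at by 2.41 (SE 0.14, 5.31-fold). On all 3 the control arrays were the low ones, and #1 and #2 overlapped.

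Cdkn1c, the cyclin-dependent kinase inhibitor p57, which restrains growth and is required for placental development, has 1 probe set. It read 10.03 and 10.11 with the control, 11.14 and 10.89 with #1, and 10.82 and 10.88 with #2. It rose by 0.94 with #1 (SE 0.08, 1.92-fold) and by 0.78 with #2 (SE 0.08, 1.72-fold). Grb10, an adaptor that dampens insulin and IGF receptor signalling, rose on 1 of 3 probe sets. That one, 1425458_a_at, read 10.81 and 10.84, then 11.16 and 11.11, then 11.34 and 11.34, and rose by 0.31 (SE 0.06) and 0.52 (SE 0.06). The differences of the other 2 lay between -0.09 and 0.35 and were not called. Averaged over its 3 probe sets, Grb10 stood at 0.13 with #1 and was not called there.

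Phlda2, a pleckstrin homology protein that limits placental growth, was the member that fell. Its probe set, 1417837_at, read 11.94 and 12.06 with the control, 10.58 and 10.53 with #1, and 10.65 and 10.82 with #2. Both control arrays were high and the groups did not overlap. Phlda2 fell by 1.45 on the log2 scale with #1 (SE 0.07, to 0.366 of the control) and fell by 1.27 with #2 (SE 0.07, to 0.415). Cdkn1c and Phlda2 lie in the same Kcnq1ot1 domain with only Slc22a18 measured between them. The summed airway secretory markers given above were likewise higher in the control arrays, and their part in this fall was not tested.

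**Figure D2:**
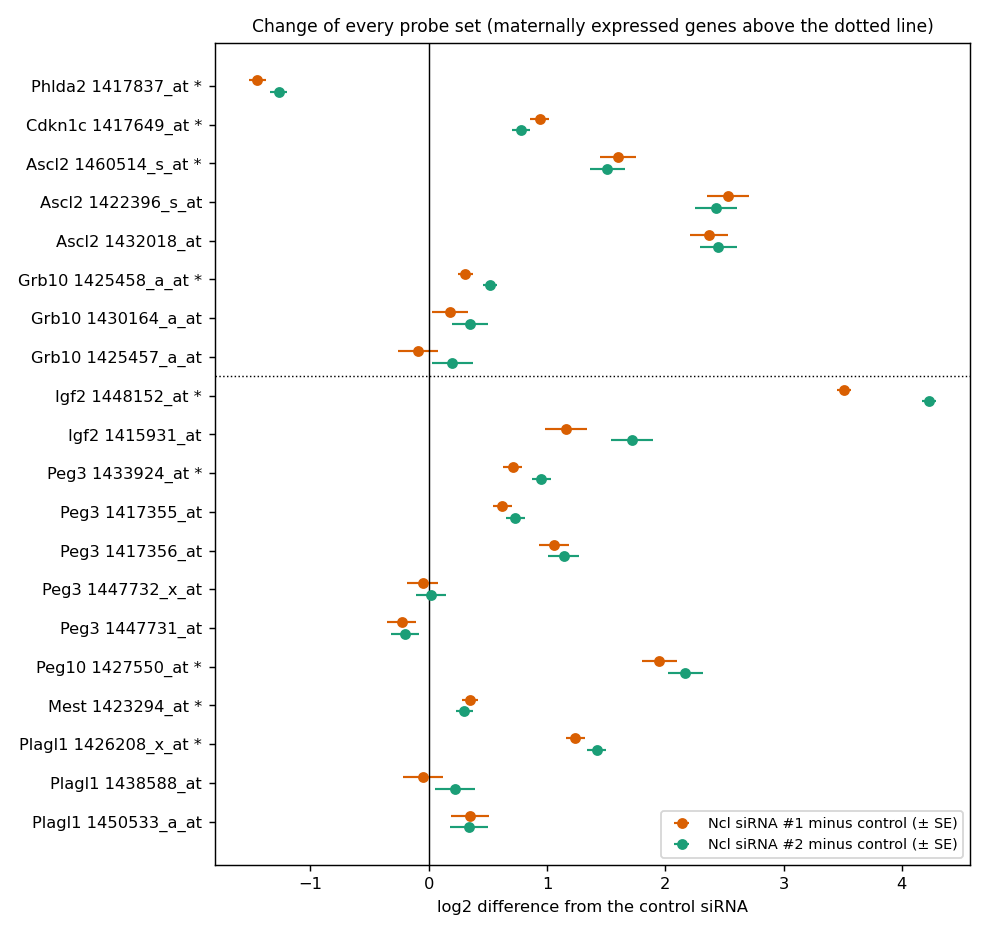
Log2 difference from the control siRNA (horizontal axis) for all 20 probe sets, with siRNA #1 in orange and #2 in green; points are differences of means of 2 arrays, bars are standard errors from limma, and a star marks the brightest probe set of a gene. Igf2 1448152_at lies farthest right at 3.51 and 4.23, and Phlda2 is on the left at -1.45 and -1.27.

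H19, the maternally expressed non-coding RNA beside Igf2, has no value of its own here. The probe set annotated to both Mir675 and H19 read 5.76 and 6.10 with the control, 7.74 and 7.34 with #1, and 7.47 and 7.61 with #2. Its control readings were the low ones, and the difference was 1.61 in the mean of both siRNAs (SE 0.14). Mir675 is processed from the H19 transcript, and its mature forms are given from RefSeq (GRCm38.p6, minus strand) with the seed, bases 2 to 8, in capitals, because the shared probe set cannot separate it from its host.
mmu-miR-675-5p, chr7:142577112-142577133: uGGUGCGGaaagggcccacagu
mmu-miR-675-3p, chr7:142577078-142577099: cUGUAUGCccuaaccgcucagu

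The Ncl siRNAs were then compared with each other. The difference is between means of the Ncl siRNA arrays, while its standard error pools the spread of all 3 groups, and the list was made with results of these arrays known. Igf2 was the member called. On 1448152_at it was higher with #2 by 0.72 (SE 0.06, 95% confidence interval 0.59 to 0.85, limma adjusted p = 4.26e-06), both #2 arrays lying above both #1 arrays. The dim Igf2 probe set was higher by 0.57 (SE 0.18, limma adjusted p = 0.116), which did not pass. In all 1 of 20 probe sets rose and 0 fell, beside 0.959% and 1.95% of all probe sets. At an unadjusted p under 0.05 in limma 6 rose and 0 fell. The share of all probe sets at that unadjusted threshold was not counted, here or for the lists below, so nothing is read from such counts. The next smallest adjusted p was that of Grb10 1425458_a_at, at 0.21 (SE 0.06, 95% confidence interval 0.08 to 0.33, limma adjusted p = 0.0721). Grb10 passed with quantile normalization, with 1 probe set per gene and above the median signal, and Cdkn1c passed without replicate 2 of #1 (-0.29). For Mest the interval of the difference ran from -0.19 to 0.10 and for brightest Ascl2 from -0.41 to 0.23.

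In the same comparison no airway, alveolar or lung mesenchyme marker was called in limma, with 1 of 5, 2 of 6 and 2 of 10 at an unadjusted p under 0.05. Of 8 heart markers 1 was lower with #2, Myh6 by -0.82 (SE 0.16). Of 6 stem cell markers 4 were lower with #2, namely Pou5f1, Nanog, Zfp42 and Esrrb, beside 3.11% of all genes. The part of these differences in the higher Igf2 was not tested. Trophoblast markers were higher with #2 for 6 of 13 genes, among them Cdx2, Krt8 and Krt18, with a list median of 0.64, beside 1.45% of all genes. The other 7 were not called, among them Eomes (-0.07, SE 0.11) and Elf5 (0.02, SE 0.17). The summed level of the list was 10.75 to 10.84 with the control, 13.10 to 13.13 with #1 and 13.90 to 13.94 with #2. With #2 the means of Krt8 and Krt18 were 12.71 and 12.20, so these genes make up much of that sum. Against the control, in the mean of both siRNAs, 10 of 13 rose (19.3% of all genes), none fell and 3 were not called. At an unadjusted p under 0.05 in limma, 10 rose and 0 fell, again without a share of all genes. Among the genes not called was Tpbpa (-0.08, SE 0.14), a marker of the spongiotrophoblast in which Ascl2 acts. Tpbpa lay below the lower quartile of all 6 arrays, which gives only a weak bound on its change. Whether trophoblast-like cells carry the imprinted transcripts was not tested.

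Other imprinted genes moved in both directions. Their parental classes were set from general knowledge and not checked here, so some genes may stand in the wrong class. Among those in doubt, the lists count Xist as maternally and Zim2 and Zim3 as paternally expressed. None of these was called, and the class counts and medians include them. Of 33 other genes listed as maternally expressed and measured, 12 rose, 6 fell and 15 were not called, with a median of 0.15. Osbpl5, an oxysterol-binding protein gene, rose by 1.71 (SE 0.17), Qpct, a glutaminyl cyclase gene, by 1.64 (SE 0.16), and Gatm, which makes a creatine precursor, by 1.61 (SE 0.19). Igf2r, the receptor that clears Igf2, read 8.83 and 8.44 with the control, 9.33 and 9.09 with #1, and 9.29 and 9.35 with #2, and rose by 0.63 (SE 0.10). Meg3, a non-coding RNA of another imprinted cluster, stood at -0.06 (SE 0.06) and was not called. Dcn, which fell by 1.35 (SE 0.16), is also a marker of lung mesenchyme in the lists used here.

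Of 24 other genes listed as paternally expressed and measured, 6 rose, 3 fell and 15 were not called, with a median of 0.06. Besides Sgce, Ndn rose by 0.98 (SE 0.07) and Magel2 by 0.65 (SE 0.13), both MAGE family genes of the Prader-Willi region. Snrpn, of the same region, read -0.32 (SE 0.13), and Dlk1, a growth regulator opposite Meg3, 0.18 (SE 0.13), and neither was called. Together 18 of 57 rose (31.6%) and 9 fell (15.8%), beside 19.3% and 19.9% of 18193 genes, and the median was 0.11 against -0.05 over all genes. The counts share arrays with the lung and heart transcripts given above.

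**Figure D3:**
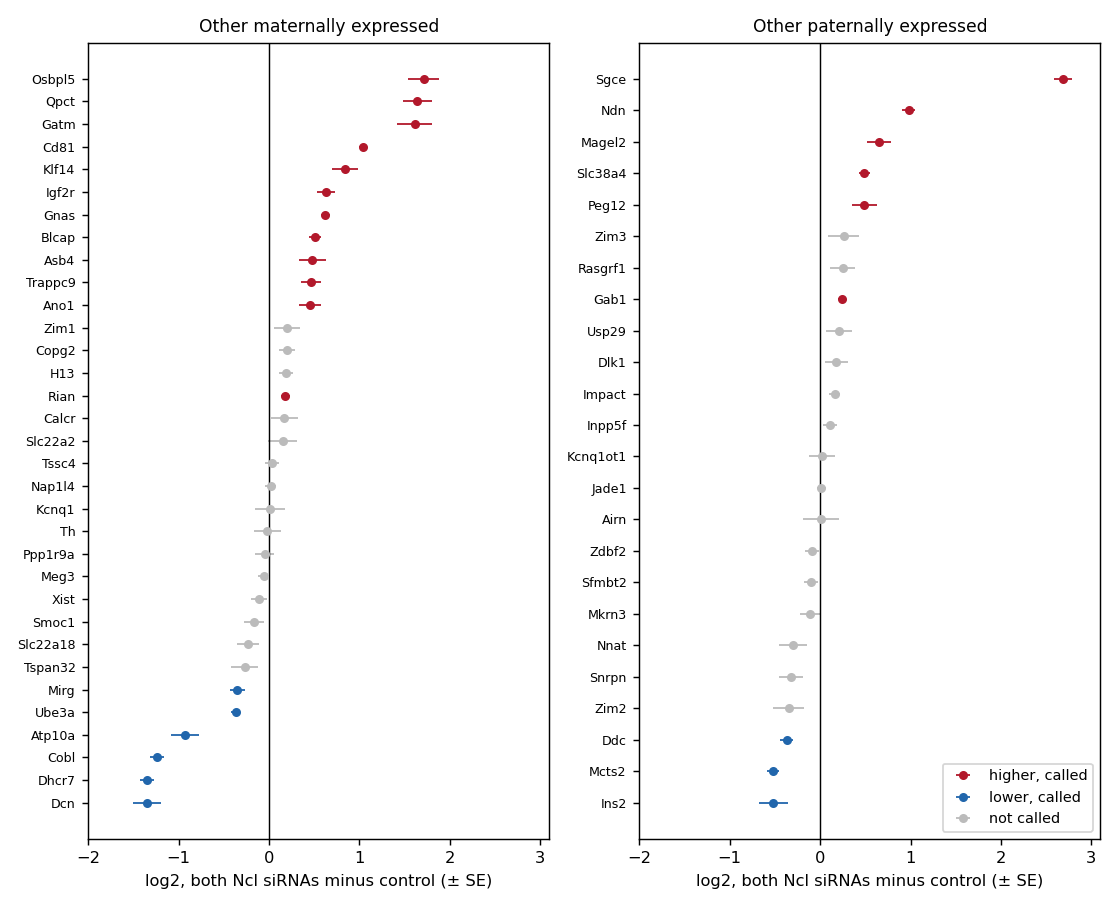
Log2 change in the mean of both Ncl siRNAs minus control (horizontal axis) for 33 other genes listed as maternally and 24 listed as paternally expressed. Each gene has 1 probe set, bars are standard errors, red and blue mark calls in limma and grey marks genes not called. Values run from Dcn at -1.35 to Sgce at 2.69, with 30 genes not called.

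Position on the chromosome was then considered, in the gene order of the GRCm38.p6 RefSeq annotation, a description chosen after the values were seen. From Igf2 to Osbpl5 on chromosome 7, 22 genes were measured, of which 6 rose, 2 fell and 14 were not called. These include 4 members, listed with their changes known. Of the 18 other genes 3 rose, 1 fell and 14 were not called, beside 19.3% of all genes that rose and 19.9% that fell. Igf2os, on the opposite strand of Igf2, rose by 1.15 (SE 0.12), while Ins2, the next gene, fell by 0.52 (SE 0.16, not called with #2 alone) and Th stood at -0.02 (SE 0.15). Cd81, a tetraspanin gene between Ascl2 and Cdkn1c, rose by 1.04 (SE 0.04). Kcnq1ot1, the non-coding RNA that silences the domain on the paternal copy, read 7.12 and 6.74 with the control, 7.14 and 6.98 with #1, and 6.67 and 6.97 with #2. It was not called (0.02, SE 0.14), and its groups overlapped. Slc22a18 and Nap1l4, on either side of Phlda2, stood at -0.23 (SE 0.12) and 0.02 (SE 0.06), also not called.

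**Figure D4:**
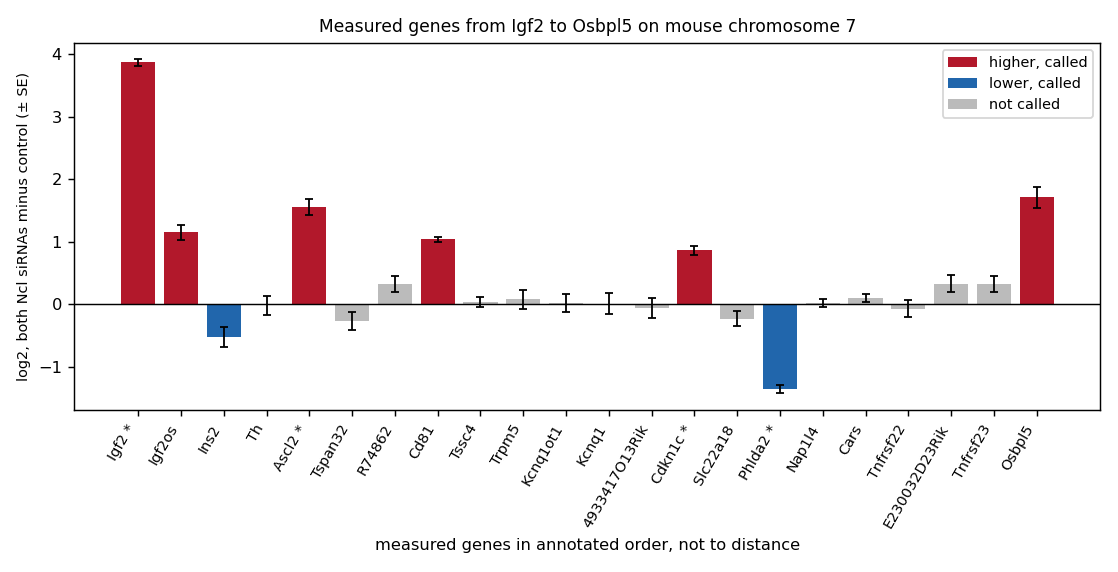
Log2 change in the mean of both Ncl siRNAs minus control (vertical axis, bars with standard errors) for 22 measured genes in annotated order from Igf2 to Osbpl5, spaced evenly and not by distance. Stars mark members; Igf2 stands at 3.87, Phlda2 at -1.36, and 14 genes in grey were not called.

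Taking the 3 nearest measured genes on each side of every member gave 46 neighbouring genes that are no members. Of these 7 rose (15.2%), 5 fell (10.9%) and 34 were not called, with a median of 0.04, beside 19.3% and 19.9% of all genes. Around Grb10, Cobl fell by 1.24 (SE 0.08) and Ddc fell by 0.37 (SE 0.07), both imprinted in some tissues, while 1700042O10Rik rose by 0.70 (SE 0.13), as Grb10 did. No measured neighbour of Peg3 or Mest was called, and those of Peg3 include the imprinted genes Zim1 (0.20, SE 0.14) and Usp29 (0.21, SE 0.14).

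Genes that act with Igf2 were described from a list of 18 measured members of the IGF pathway, of which 8 rose, 1 fell and 9 were not called in the mean of both siRNAs, with a median of 0.15, beside 19.3% and 19.9% of all genes that rose and fell. Htra1, a secreted protease that cleaves IGF-binding proteins, rose by 3.93 (SE 0.08) and was higher with #2 than with #1 by 1.05 (SE 0.09). Irs2, an adaptor below the insulin and IGF receptors, rose by 2.33 (SE 0.09), and Igfbp3, a carrier of IGFs in plasma, by 1.18 (SE 0.07). The signalling receptor Igf1r, named here after its values were seen, stood at -0.14 (SE 0.12) and was not called.

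Among 15 measured factors that keep or build on imprinting marks, 7 fell, none rose and 8 were not called in the mean of both siRNAs, with a median of -0.20, beside 19.9% of all genes that fell and 19.3% that rose. Dnmt3a, a DNA methyltransferase named after its values were seen, went in opposite directions: it rose by 0.32 with #1 (SE 0.08), fell by 0.37 with #2 (SE 0.08) and was therefore not called in that mean (-0.03, SE 0.07). At an unadjusted p under 0.05 in limma, 8 fell and 0 rose, a threshold at which the share of all genes was not counted. Zfp57, the zinc finger protein that guards imprinted regions, read 8.74 and 8.58 with the control, 7.95 and 7.76 with #1, and 7.55 and 7.56 with #2, and fell by 0.95 (SE 0.10). Ctcf, which binds the control region between Igf2 and H19, fell by 0.49 (SE 0.05), and Zfp445, a partner of Zfp57 in imprint control, fell by 0.46 (SE 0.06). DNA methylation at the imprinted regions was not measured on these arrays.

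The genes whose 6 values ran closest to those of a member were found by the Euclidean distance between profiles, each gene set to 0 at its control mean, over 6 arrays and 16434 named genes. They describe likeness on 3 groups only. For Igf2 they were Sbsn (distance 0.25), Anxa3 (0.25) and Ets1 (0.31), and all 3 were also higher with #2 than with #1. For Phlda2 they were Septin1 (0.24), Pla2g1b (0.29) and Pla1a (0.31). For Cdkn1c they were Aaas (0.06), Jak2 (0.07) and Pld3 (0.10), and for Peg10 Ccdc158 (0.13), Frmd6 (0.19) and Mfge8 (0.21).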

How the data were processed

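Values were the deposited log2 signals of 45101 Affymetrix probe sets on 6 arrays, normalized between arrays by the authors with a method not given in the sources used here. Per the labels' protocols, total RNA was extracted with a Qiagen kit and labelled with biotin. How detection and background were handled is not stated. The 64 control probe sets were left out of the tests. Genes were named from the platform annotation (34945 probe sets with 1 symbol, 932 with several, 9160 with none), and no symbol changed through its gene identifier, although 204 identifiers were not in the RefSeq table. The 3 group means were estimated jointly by limma 3.58.1 (R 4.3.3) from the 6 arrays, with variances that follow the mean and 3 residual degrees of freedom. Benjamini-Hochberg adjustment covered all 45037 probe sets at a threshold of 0.05, and standard errors pool the spread of all groups. The fit was tested on simulated data.

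Lists describe a gene by its brightest probe set. Named genes were the members, up to 3 called genes with the largest change in each list, and Igf2r, Dlk1, Meg3 and Snrpn. The 6 stem cell markers are named in full. Genes named for their position, Dcn, Igf1r, Dnmt3a, Myh6, Cdx2, Eomes, Elf5, Zim3 and Tpbpa were added after their values were seen. Members and lists were chosen with earlier results of these data known. Other normalizations, filters, variance models, array weights, a replicate block and leaving out each array were tried. No effect shared by replicate number was visible, as deviations correlated at 0.00 to 0.02 between groups over all probe sets. Whether replicate numbers pair the samples is not stated, and these correlations cannot decide it. Precision is limited by 2 arrays per group.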

Additional observations from a re-analysis of the deposited data

Results flagged for a closer look

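Igf2, on its brightest probe set, was higher by 0.72 with #2 than with #1 by the limma test of that difference, on 2 arrays per group. Its dim second probe set was higher by 0.57 and was not called. Whether the replicates were separate cultures is not given. The probe set annotated to both Mir675 and H19, which enters none of the comparisons because it names no single gene, was 1.61 above the control arrays in the mean of both siRNAs.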

How the results depend on the processing

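Over 18 alternatives (17 for the mean of both siRNAs, where a fit on only the arrays compared was not run), all 28 member changes called against the control or between the siRNAs kept their direction, except Plagl1 without _x_at and _s_at probe sets, which read -0.05 with #1 there, since another probe set then stands for the gene. With 1 probe set per gene, 9 members were called in each comparison against the control, since 9 were tested. Leaving out each array gave 14 called probe sets with #1 (14 to 14), 13 to 15 with #2 and 14 to 14 in the mean of both. Between the siRNAs the count was 1, or 2 with quantile normalization, with 1 probe set per gene and above the median signal, and 1 to 2 when arrays were left out. The 27 other imprinted genes called became 24 to 31 without an array. With the replicate block, 14 member probe sets were called in each comparison against the control, 1 between the siRNAs and 27 other imprinted genes, so the block moved no count. Without a variance trend Grb10 with #1 and Mest with #2 lost their calls, and the cause was not tested. Dim probe sets near the lower quartile give only a weak bound on change.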
